A study of Mus musculus with 24 samples.

Results

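The 7 genes described here, of 24421 in the count table, act in sequence in cellular lipid handling. Vldlr, Lrp8 and Lrp1 encode lipoprotein receptors, Hilpda and Plin2 encode proteins of the lipid droplet, Pnpla2 encodes the lipase that opens the droplet's triglyceride store, and Cpt1a encodes the enzyme that commits fatty acids to mitochondrial oxidation. The set was picked by name around Vldlr, which was chosen by its own measured levels, because it was off in one genotype and on in the other. Its difference between genotypes is therefore given as a description without a test, while the other 6 genes were tested in every comparison. Those 6, too, were chosen with earlier results of these data known. Neither their adjusted p nor the shares of all genes set beside them below account for that choice. All 7 passed the filter on low counts, Vldlr through the flox/flox libraries alone.

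RNA was sequenced from B cells sorted from the bone marrow of 8 mice. All mice carried MB1 Cre +/WT in the heterozygous state, a recombinase driven by the Mb1 (Cd79a) gene of the B lineage. In 4 mice both Vhl alleles were floxed (VHL flox/flox), and in the other 4 mice 1 allele was floxed and 1 was wild type (VHL flox/WT), so that the controls also carried the recombinase and 1 floxed allele. Each mouse gave 3 libraries, 1 from a joint pro-B and pre-B sort (proBpreB), 1 from immature and 1 from mature B cells, for 24 libraries and 4 mice in each of 6 groups. Ages, gates, the purity of the sorts and the position of the lox sites are not stated in the labels.

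Vhl encodes the part of a ubiquitin ligase that recognises hydroxylated hypoxia-inducible factors (HIF) and sends them to the proteasome. HIF are transcription factors that accumulate in low oxygen, and cells short of oxygen commonly take up and store more lipid and oxidise less. Vldlr and Hilpda are textbook genes of that response, in tissues such as heart, liver and kidney.

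As a check of the labels, Vhl itself lay lower in the flox/flox libraries of every population, without overlap. Its level was 10.2 ± 3.37 against 25.3 ± 2.02 in proBpreB, 5.58 ± 2.31 against 35.5 ± 8.88 in immature and 7.60 ± 1.90 against 29.1 ± 2.81 CPM in mature cells (mean ± SD, n = 4 mice here and below). CPM is the count scaled to the library total after TMM adjustment. Library totals ran from 7850186 to 11863949 counts, so that 3 counts correspond to 0.253 to 0.382 CPM. Markers fixed for the sorts separated the populations as labelled, since the summed level of 7 pro-B and pre-B genes was at least 1443 CPM in every proBpreB library and at most 89.1 CPM in every other library. The same markers also differed between genotypes. In mature cells the pro-B and pre-B sum was 72.3 to 89.1 CPM in flox/flox against 30.9 to 54.4 CPM in flox/WT, with 3 of 7 genes called higher. The sum of 7 mature B cell markers was 17827 to 22121 CPM in flox/flox against 23262 to 27541 CPM in flox/WT in immature cells, and 32879 to 41071 against 45439 to 61030 CPM in mature cells, with 4 and 2 called lower. In proBpreB 5 of these 7 were called lower and 1 higher with overlapping sums. The sum of 7 B lineage genes was 3096 to 3231 CPM in flox/flox against 4385 to 5066 CPM in flox/WT in proBpreB. In mature cells it was 6614 to 7240 against 8599 to 9553 CPM, and 3 of the 7 were called lower in both populations. In immature cells the B lineage sums overlapped, with 1 called lower. The part of these shifts in the genotype differences given below was not tested. In immature cells the flox/flox libraries also had more RNA of some other lineages, while of 4 plasma cell genes tested 1 was called higher and 3 lower. The sum of 9 neutrophil and monocyte markers was 6793 to 9171 CPM against 4332 to 5354 CPM, and that of 10 erythroid markers was 5386 to 9813 CPM against 1405 to 4193 CPM, with 2 and 5 of these genes called higher. In mature cells the sum of 7 NK cell markers was 53.5 to 64.9 CPM in flox/flox against 22.5 to 41.0 CPM in flox/WT, with 3 called higher, and 3 of 10 erythroid markers were called higher with overlapping sums. Of the genes of these lists, Tnfrsf17 of the plasma cell list was at 0 in immature flox/flox and in mature flox/WT. Lep and Plin1 of the stroma, endothelium and adipocyte list were at 0 in every group. In sorted bulk RNA a change in the share of cells that express a gene and a change in RNA per cell cannot be told apart.

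Vldlr, the very low density lipoprotein receptor, binds triglyceride-rich particles that carry apolipoprotein E and takes them into the cell. The gene lies on chromosome 19 (chr19:27216480-27254231, plus strand, GRCm38.p6). The 246 bases directly in front of its annotated start are shown because they precede the gene whose level differed most between the genotypes among the 7.
Vldlr upstream, chr19:27216234-27216479, plus strand: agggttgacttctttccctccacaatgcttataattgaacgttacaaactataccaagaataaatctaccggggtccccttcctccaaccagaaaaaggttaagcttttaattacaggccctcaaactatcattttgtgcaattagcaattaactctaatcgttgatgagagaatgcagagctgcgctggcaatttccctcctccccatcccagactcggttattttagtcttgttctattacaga
HIF binds a core written ACGTG or GCGTG. Neither was found on either strand of this stretch, nor in the 2 annotated Vldlr promoter windows, each reaching from 250 bases before to 50 after a transcript start. That says only that these letters are absent from these windows.

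Hilpda and Plin2 are shown beside it because their promoter windows do hold the core, printed in capitals within 29 bases of context. The numbers after the names give the first base of the capitals relative to the transcript start of the window. For Plin2 that start lies inside the gene as placed below, so both of its sites fall within the gene's coordinates. The windows of Lrp8 and Cpt1a also lie inside the coordinates given for these genes.
Hilpda, start of the second transcript, position -43, chr6:29272571-29272599, plus strand: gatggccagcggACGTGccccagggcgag
Hilpda, start of the second transcript, position -8, chr6:29272606-29272634, plus strand: caggttcggtacGCGTGcgcagtctccga
Hilpda, start of the first transcript, position 28, chr6:29272503-29272531, plus strand: caaccgcgagccGCGTGctttccgtgact
Plin2, position -86, chr4:86670129-86670157, minus strand: ggttggggttccCACGCcctcatccccaa
Plin2, position -4, chr4:86670046-86670074, minus strand: agctgggctatCACGTGgctcggaggctt
CACGC is GCGTG read on the other strand, and CACGTG holds ACGTG on both. Of the 11 RefSeq windows of the 7 genes, 5 held the core, belonging to Hilpda, Plin2 and Lrp8, and the windows of Lrp1, Pnpla2 and Cpt1a held none. Among all 32851 mouse promoter windows of that length 43.8% held it, and among the 12298 windows of genes tested here 60.8% did, so a match is common.

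In control mice Vldlr was at or near 0. Its level was 0, 0, 0.276 and 0 CPM in the proBpreB libraries of replicates 1 to 4, 0 in all 4 immature libraries, and 0, 0, 0.124 and 0 CPM in the mature libraries. These values stand for 3 counts and 1 count, and both fell in replicate 3, which is the same mouse. In flox/flox mice the proBpreB libraries had 44.1, 46.0, 44.1 and 45.9 CPM, the immature libraries 95.8, 82.9, 95.5 and 86.0 CPM, and the mature libraries 88.5, 99.0, 103 and 94.7 CPM.

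Every flox/flox library thus had at least 471 Vldlr counts, and no flox/WT library had more than 3. The ratio of summed counts was 689 in proBpreB, with a 95% counting interval from 235 to 3343. In mature cells it was 3350, with an interval from 601 to 132344. Both intervals cover counting error only and not the spread between mice. They describe a gene that was chosen for this pattern and give it no support. Against an immature control group without a single count, the level in flox/flox was at least 1157-fold higher, taking 3 counts over the group as the limit.

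**Figure D1:**
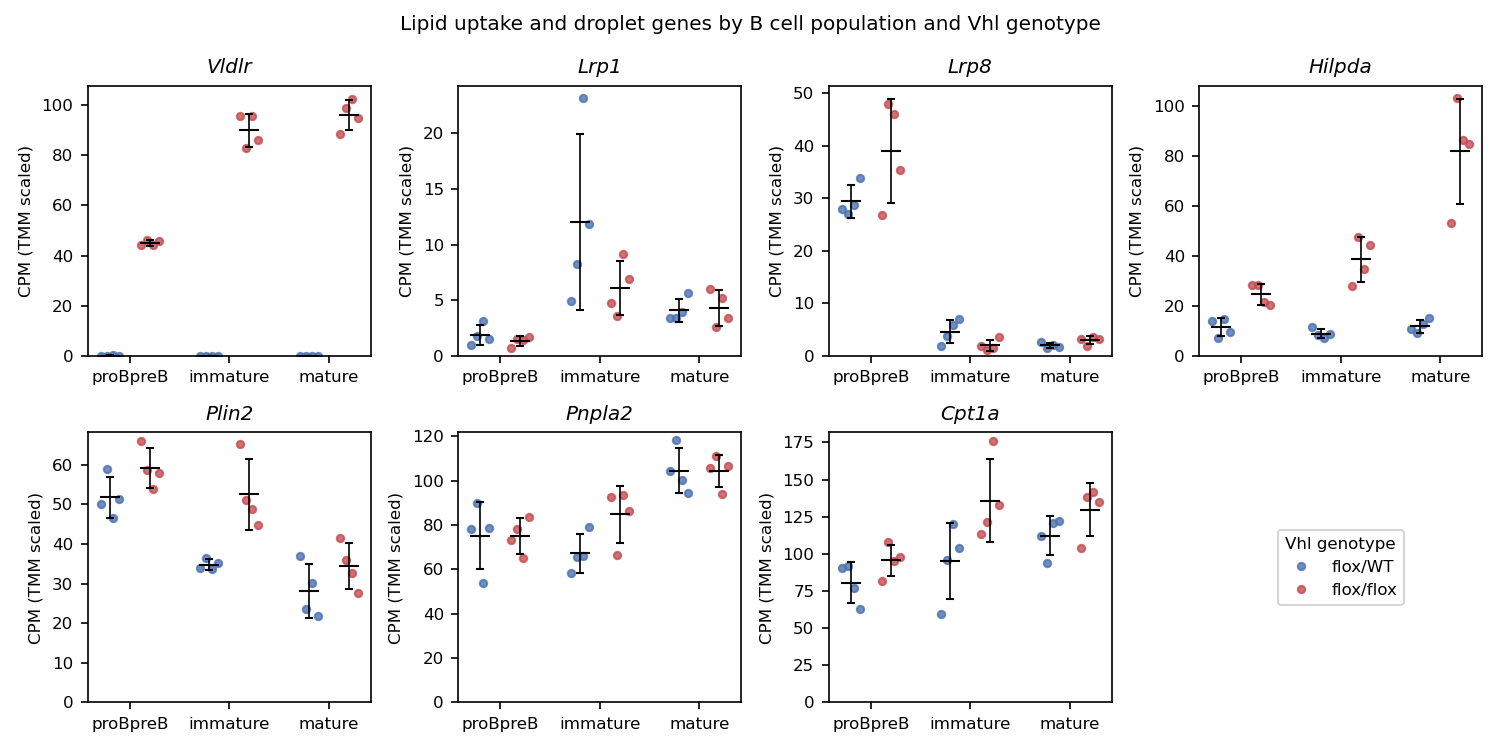
Level of each of the 7 genes in CPM (TMM scaled) by B cell population, with 1 point per library, flox/WT in blue and flox/flox in red, and bars for the mean ± SD of 4 mice. Vldlr is near 0 in every flox/WT library and between 44.1 and 103 CPM in flox/flox, Hilpda separates the genotypes in all 3 populations, and Lrp8 falls from proBpreB to the later populations in both genotypes.

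Within flox/flox mice, where Vldlr could be tested across stages, its level rose between proBpreB and immature cells from 45.1 ± 1.06 to 90.0 ± 6.60 CPM. The log2 change was 1.00 (SE 0.15, edgeR's quasi-likelihood test with Benjamini-Hochberg adjustment, adjusted p = 3.09e-06). No immature library overlapped a proBpreB library, and the ratio within a mouse was 1.80 to 2.17, above 1 in 4 of 4 mice. Mature cells had 96.2 ± 6.03 CPM, which did not differ from immature cells beyond the spread (log2 0.10, SE 0.15, adjusted p = 0.681). The ratio of mature to immature within a mouse ran from 0.924 to 1.19. The SDs were thus far below the step from proBpreB to immature cells and about as large as the difference between immature and mature means.

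Lrp8 (apolipoprotein E receptor 2) is the closest relative of Vldlr and shares with it the ligand reelin. It lies at chr4:107802200-107876840, where the annotated genes Lrp8os1 and Lrp8os2 overlap it, and reads of overlapping genes could not be separated. Its main pattern was one of stage. ProBpreB libraries had 28.0, 27.0, 28.7 and 33.9 CPM in flox/WT and 26.8, 48.0, 46.1 and 35.3 CPM in flox/flox. Immature libraries had 1.89, 3.81, 5.80 and 6.94 CPM in flox/WT and 1.87, 1.12, 1.55 and 3.51 CPM in flox/flox. Mature libraries had 2.65, 1.51, 2.12 and 1.71 CPM and 3.19, 1.83, 3.59 and 3.30 CPM respectively.

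Every proBpreB library lay above every later library. The step to immature was -2.64 on the log2 scale in controls (SE 0.29, adjusted p = 1.11e-08), and -4.26 in flox/flox (SE 0.32, adjusted p = 6.54e-12). Vldlr and Lrp8 thus moved in opposite directions over that step in flox/flox mice. From immature to mature, Lrp8 fell again in controls (log2 -1.24, SE 0.33, adjusted p = 0.00466), and in flox/flox the step was 0.55 (SE 0.35, adjusted p = 0.267).

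Between genotypes Lrp8 was called in immature cells, where it was lower in flox/flox, at 2.01 ± 1.05 against 4.61 ± 2.23 CPM (log2 -1.21, SE 0.34, adjusted p = 0.00994). The groups overlapped, and these are 63 against 189 counts in all. The call was lost without replicate 4 of immature flox/WT (-0.96, adjusted p = 0.0599), when only the groups compared were fitted (-1.20, adjusted p = 0.0610) and with limma-voom (-1.22, adjusted p = 0.0808). In proBpreB the change was 0.41 (adjusted p = 0.414) and in mature cells 0.58 (adjusted p = 0.283). Tested directly, the genotype effect was lower in immature than in proBpreB cells by -1.63 (SE 0.42, adjusted p = 0.0117), and higher in mature than in immature cells by 1.79 (SE 0.49, adjusted p = 0.0190). The latter was lost without replicate 4 of immature flox/WT (1.53, adjusted p = 0.0565), with only the groups compared (1.77, adjusted p = 0.0784) and with limma-voom (1.77, adjusted p = 0.109).

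Lrp1, a large endocytic receptor for many ligands and abundant in macrophages and liver, lies at chr10:127538157-127621148 on the minus strand and is overlapped by Gm16217. Its level was low, at 1.01, 1.77, 3.13 and 1.53 CPM in proBpreB flox/WT and 0.750, 1.50, 1.39 and 1.74 CPM in proBpreB flox/flox. Immature libraries had 4.93, 8.26, 23.1 and 11.8 CPM in flox/WT and 4.80, 3.63, 9.18 and 6.90 CPM in flox/flox. Mature libraries ran from 3.38 to 5.62 CPM in flox/WT and from 2.58 to 6.05 CPM in flox/flox. Replicate 3 of immature flox/WT stood highest of all 24 libraries.

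From proBpreB to immature cells Lrp1 rose in both genotypes without overlap, by 2.70 in flox/WT (SE 0.41, adjusted p = 3.89e-06) and 2.18 in flox/flox (SE 0.43, adjusted p = 0.000112). It then fell in mature controls (log2 -1.56, SE 0.39, adjusted p = 0.00266), with overlap, while in flox/flox the change was -0.51 (SE 0.40, adjusted p = 0.375). No genotype comparison was called. The changes were -0.46 in proBpreB (adjusted p = 0.647), -0.98 in immature (SE 0.38, adjusted p = 0.0686) and 0.07 in mature cells (adjusted p = 0.934). The immature value passed the threshold without replicate 1 of immature flox/WT (-1.23, adjusted p = 0.0169) and without replicate 3 of immature flox/flox (-1.24, adjusted p = 0.0374). Over all 8 fits that left out 1 library it ran from -1.24 to -0.447, with adjusted p from 0.0169 to 0.468.

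Macrophage markers were higher in immature than in proBpreB cells, as Lrp1 was. The sum of 10 such genes was 123, 128, 198 and 169 CPM in the immature flox/WT libraries and 131, 122, 169 and 141 CPM in immature flox/flox. In both groups the libraries had the same order for these genes as for Lrp1, with replicate 3 the highest. In proBpreB the sum was 46.7 to 78.5 CPM. In mature cells it was 127, 96.1, 172 and 174 CPM in flox/WT, within or near the immature range, where the mean of Lrp1 was 4.09 CPM after 12.0 CPM in immature flox/WT. Between genotypes in immature cells the median change of the 9 macrophage genes tested was 0.01, with 1 called lower, beside the -0.98 of Lrp1. The same immature flox/WT library also stood apart for 7 megakaryocyte and platelet genes, with 162 CPM against 8.61 to 25.4 CPM in the other immature libraries. The part of macrophage or platelet RNA in the Lrp1 levels was not tested.

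Hilpda (chr6:29272488-29275449, plus strand) encodes a small protein that binds the lipase of Pnpla2 and holds back its activity. It was the only tested gene of the 6 that was called higher in flox/flox in all 3 populations. Control libraries had 14.2, 7.32, 14.6 and 9.53 CPM in proBpreB, 11.5, 8.51, 6.98 and 8.61 CPM in immature and 10.6, 9.06, 12.8 and 15.0 CPM in mature cells. Flox/flox libraries had 28.3, 28.3, 21.5 and 20.4 CPM in proBpreB, 28.0, 47.7, 34.9 and 44.4 CPM in immature and 53.1, 103, 86.6 and 85.0 CPM in mature cells. The genotypes did not overlap in any population, and unlike Vldlr the gene was also measured in every control library.

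The genotype effect on Hilpda was 1.11 on the log2 scale in proBpreB (SE 0.22, adjusted p = 0.00149), 2.13 in immature (SE 0.23, adjusted p = 5.78e-08) and 2.78 in mature cells (SE 0.23, adjusted p = 2.87e-10). These correspond to ratios of mean levels of 2.16, 4.36 and 6.90. All 3 calls held in every alternative fit and without each library in turn. The effect was larger in mature than in proBpreB cells by 1.67 (SE 0.32, adjusted p = 0.00208). It was larger in immature than in proBpreB cells by 1.02 (SE 0.32, adjusted p = 0.0382), but that call was lost with limma-voom (adjusted p = 0.0663) and in 9 of the 16 fits that left out 1 library (adjusted p = 0.0684 to 0.0969). Those 9 left out replicates 1 and 3 of proBpreB flox/WT, 3 and 4 of proBpreB flox/flox, 2, 3 and 4 of immature flox/WT, or 2 and 4 of immature flox/flox. Between mature and immature cells the difference was 0.65 (SE 0.32, adjusted p = 0.255).

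Across stages Hilpda was called in flox/flox mice. It rose from proBpreB to immature by 0.65 (SE 0.22, adjusted p = 0.0116), with overlap, and without replicate 2 of immature flox/flox by 0.54 (adjusted p = 0.0515). It rose again from immature to mature by 1.08 (SE 0.21, adjusted p = 0.000281), without overlap and by 1.90 to 2.48 times within each of 4 mice. In controls these steps were -0.36 (adjusted p = 0.206) and 0.43 (adjusted p = 0.171). In flox/flox mice Vldlr was thus called at the first step and Hilpda at both.

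**Figure D2:**
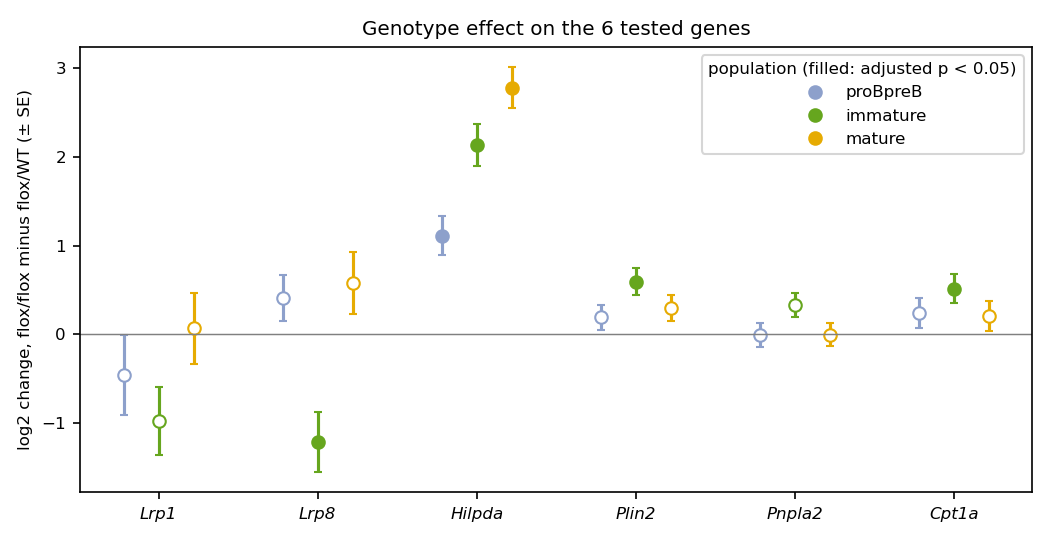
Log2 change between flox/flox and flox/WT (edgeR estimate ± SE) of the 6 tested genes, with the populations in colour and filled points for an adjusted p under 0.05. Hilpda stands at 1.11, 2.13 and 2.78 in proBpreB, immature and mature cells, and the other filled points, for Plin2, Cpt1a and Lrp8, are all in immature cells.

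Plin2, a coat protein found on lipid droplets of most cell types, lies at chr4:86626910-86670217 on the minus strand. Immature libraries had 34.0, 36.5, 33.6 and 35.2 CPM in flox/WT and 65.3, 51.2, 48.9 and 44.8 CPM in flox/flox, a tight control group wholly below a spread flox/flox group. The change was 0.59 (SE 0.15, adjusted p = 0.00402), and the call held in every alternative fit and without each library in turn. In proBpreB the levels were 51.7 ± 5.24 and 59.1 ± 5.04 CPM in flox/WT and flox/flox, with overlap (0.19, SE 0.14, adjusted p = 0.524). In mature cells they were 28.1 ± 6.83 and 34.5 ± 5.86 CPM (0.30, SE 0.15, adjusted p = 0.185), and without replicate 1 of mature flox/WT the change was 0.45 (adjusted p = 0.0364).

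Plin2 went down with stage in both genotypes, at different steps by the threshold. Controls fell from proBpreB to immature (log2 -0.57, SE 0.15, adjusted p = 0.00185), and the next step was -0.31 (adjusted p = 0.119, or 0.0181 without replicate 1 of mature flox/WT). Flox/flox cells fell from immature to mature (-0.61, SE 0.15, adjusted p = 0.00251), after a first step of -0.17 (adjusted p = 0.333). The difference between the genotypes at these steps was not called (0.40, adjusted p = 0.236, and -0.30, adjusted p = 0.464). Hilpda and Plin2, both droplet proteins, thus had opposite changes between immature and mature flox/flox cells.

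Pnpla2 (adipose triglyceride lipase), which makes the first cut in triglyceride breakdown, lies at chr7:141455188-141460743. Its means were nearly equal between genotypes in proBpreB, at 75.2 ± 15.2 and 75.0 ± 7.98 CPM in flox/WT and flox/flox, and in mature cells, at 104 ± 10.2 and 104 ± 7.33 CPM, with log2 changes of 0.00 (SE 0.13) in both and adjusted p = 0.994 and 0.998. Immature libraries had 58.5, 65.4, 65.9 and 79.3 CPM in flox/WT and 92.7, 66.3, 93.6 and 86.5 CPM in flox/flox, overlapping through 1 flox/flox library. That change was 0.33 (SE 0.14, adjusted p = 0.0814), and it passed the threshold without replicate 2 of immature flox/flox (0.43, adjusted p = 0.0291) or replicate 4 of immature flox/WT (0.42, adjusted p = 0.0448). From immature to mature cells Pnpla2 rose in controls (0.63, SE 0.14, adjusted p = 0.000542), while the step in flox/flox was 0.30 (SE 0.13, adjusted p = 0.104).

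Because Hilpda acts on the lipase of Pnpla2, the levels of both were also set side by side per kilobase of exon. The Hilpda level was 0.448 ± 0.227 times that of Pnpla2 in proBpreB flox/WT, 0.370 ± 0.116 times in immature flox/WT and 0.318 ± 0.0968 times in mature flox/WT. In flox/flox it was 0.905 ± 0.172, 1.31 ± 0.505 and 2.16 ± 0.548 times. All mature flox/flox libraries, at 1.38, 2.55, 2.53 and 2.18, had more Hilpda than Pnpla2 RNA per kilobase, whereas no flox/WT library exceeded 0.744. The genotypes overlapped in proBpreB, where replicate 3 of flox/WT had that 0.744 and replicate 4 of flox/flox had 0.666. The ratio is of transcripts and carries no measure of lipase activity.

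**Figure D3:**
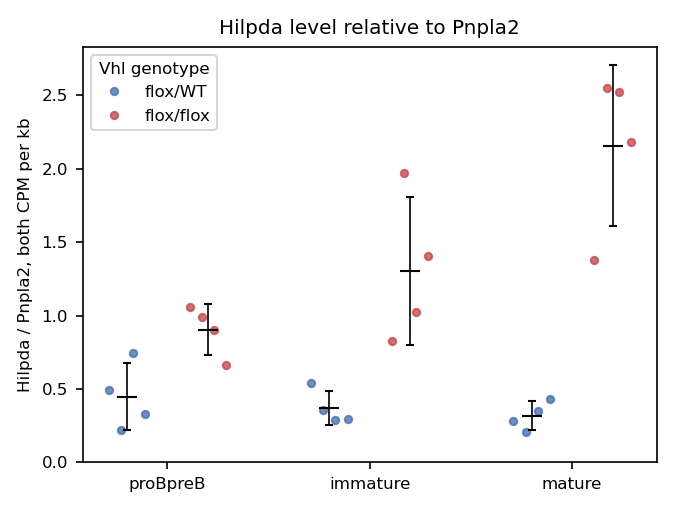
Ratio of the Hilpda to the Pnpla2 level, both in CPM per kilobase of exon, with 1 point per library and bars for the mean ± SD of 4 mice. Flox/WT libraries run from 0.209 to 0.744, and the flox/flox mean goes from 0.905 in proBpreB to 2.16 in mature cells. The genotypes overlap in proBpreB.

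Cpt1a, the carnitine palmitoyltransferase of the outer mitochondrial membrane, lies at chr19:3322326-3385735. Immature libraries had 59.7, 95.5, 120 and 104 CPM in flox/WT and 113, 121, 176 and 133 CPM in flox/flox, the highest control lying within the flox/flox range. The change was 0.52 (SE 0.17, adjusted p = 0.0276). It was lost when only the groups compared were fitted (0.52, adjusted p = 0.0720), and without replicate 1 (0.35, adjusted p = 0.108) or 2 (0.51, adjusted p = 0.0578) of immature flox/WT or replicate 3 of immature flox/flox (0.37, adjusted p = 0.138). In proBpreB the levels were 80.7 ± 13.6 and 95.5 ± 10.7 CPM in flox/WT and flox/flox (0.24, adjusted p = 0.469). In mature cells they were 112 ± 13.1 and 130 ± 17.6 CPM (0.21, adjusted p = 0.428).

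Over the stages Cpt1a rose from proBpreB to immature cells in flox/flox, without overlap (0.51, SE 0.17, adjusted p = 0.0113), and without replicate 3 of immature flox/flox by 0.36 (adjusted p = 0.0773). The same step in controls was 0.24 (adjusted p = 0.248), and without replicate 1 of immature flox/WT it was 0.40 (adjusted p = 0.0304). The step from immature to mature was 0.24 in flox/WT (adjusted p = 0.286) and -0.07 in flox/flox (adjusted p = 0.814). The direct test of the difference between genotypes at the first step gave 0.27 (SE 0.24, adjusted p = 0.532).

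Counted together, the 6 tested genes gave 1 called higher and 0 lower in flox/flox in proBpreB, where 3.38% of the 12850 genes tested were called higher and 2.75% lower. In immature cells 3 were called higher and 1 lower, against 10.2% and 10.5% of all genes. In mature cells 1 was called higher and 0 lower, against 9.69% and 6.62%. Groups without overlap and higher in flox/flox were found for 1, 2 and 1 of the 6 genes, against 7.85%, 11.4% and 9.01% of all genes. The median change of the 6 was 0.22, 0.42 and 0.25, beside a median over all genes of 0.00, 0.00 and 0.01. The immature calls came where the neutrophil, monocyte and erythroid markers were also higher, and their part in the 4 calls was not tested.

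Stage moved far more of the table. From proBpreB to immature, 1 of the 6 rose and 2 fell in flox/WT, where 24.0% and 25.4% of all genes did, and 3 rose and 1 fell in flox/flox, against 28.7% and 27.2%. From immature to mature, 1 rose and 2 fell in flox/WT, against 15.6% and 17.1%, and 1 rose and 1 fell in flox/flox, against 12.9% and 13.6%. Of the differences between genotype effects, 1 was called higher and 1 lower for immature against proBpreB, where 4.72% and 6.14% of genes were. For mature against immature the counts were 1 and 0, against 5.51% and 2.23%, and for mature against proBpreB 1 and 0, against 2.27% and 0.786%. The genotype comparisons of different stages use libraries of the same mice, and neighbouring stage comparisons share the immature libraries.

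Set against each other per kilobase of exon, the mean levels in mature flox/flox cells were 74.3 CPM per kb for Hilpda, 34.5 for Pnpla2, 17.0 for Cpt1a, 9.82 for Plin2, 9.55 for Vldlr, 0.283 for Lrp8 and 0.243 for Lrp1. In mature flox/WT the order was Pnpla2 at 34.6, Cpt1a at 14.7, Hilpda at 10.8, Plin2 at 8.01, Lrp1 at 0.231, Lrp8 at 0.190 and Vldlr at 0.00309 CPM per kb. Vldlr was thus the most abundant of the 3 receptors in mature and immature flox/flox cells, with 8.94 CPM per kb in immature flox/flox beside 0.346 for Lrp1 and 0.191 for Lrp8. In proBpreB flox/flox its 4.48 CPM per kb stood next to 3.71 for Lrp8, whereas in proBpreB controls Lrp8 had 2.79 and Vldlr 0.00686 CPM per kb.

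The neighbours in the order of the 6 group means of Vldlr that did not differ beyond their libraries were the 3 control groups among themselves and immature against mature flox/flox. For Hilpda the 3 control groups overlapped each other, as did proBpreB and immature flox/flox, and the mature flox/flox group stood clear of all others. For Lrp8 the 4 later groups overlapped their neighbours and the proBpreB groups stood clear of them. Neighbours overlapped throughout the order of Cpt1a.

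The genes most like Vldlr over the 24 libraries, by Pearson's r of log2 CPM among 11904 genes, were Stc2 (a secreted glycoprotein, r = 0.997), Ppp1r3g (a glycogen-targeting subunit of protein phosphatase 1, 0.990), Mgarp (a mitochondrial protein, 0.990), Slc16a3 (a lactate exporter, 0.988) and Egln3 (a prolyl hydroxylase that acts on HIF, 0.987). Stc2 and Ppp1r3g shared with Vldlr a near-empty control side, with 1 and 0 counts over the 12 flox/WT libraries. Slc16a3, in contrast, was measured in every control group, at 7.50 ± 1.73, 12.6 ± 2.36 and 15.0 ± 3.20 CPM, beside 355 ± 32.8, 685 ± 66.2 and 497 ± 12.5 CPM in flox/flox. Hilpda ranked 96 with r = 0.889, Cpt1a 746 with 0.503 and Plin2 1344 with 0.381, while Lrp8 (-0.07) and Lrp1 (-0.14) lay near 0. These are descriptions, since Vldlr was chosen for that pattern and the libraries share mice and depth.

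Within the 12 flox/flox libraries alone the likeness was one of stage. The highest were Ly6e (a membrane-anchored lymphocyte surface protein, r = 0.993), Nup62-il4i1 and Il4i1 (a secreted amino acid oxidase, both 0.991, a read-through and the gene whose reads it shares), Bhlhe40 (a transcriptional repressor, 0.991) and Klf2 (a regulator of lymphocyte quiescence and trafficking, 0.990). Ly6e went from 1112 ± 53.8 in proBpreB to 3010 ± 260 in immature and 3271 ± 304 CPM in mature flox/flox. It was as high in controls, at 1227 ± 115, 3144 ± 156 and 4266 ± 1068 CPM. Klf2 had 129 ± 15.6 and 237 ± 36.1 CPM in proBpreB and 977 ± 106 and 994 ± 206 CPM in mature flox/flox and flox/WT. In contrast, Bhlhe40 had 118 ± 7.76 beside 20.9 ± 2.16 CPM in mature flox/flox and flox/WT. Il4i1 had 99.0 ± 12.7 beside 168 ± 41.2 CPM in immature flox/flox and flox/WT. Lrp8 had r = -0.94 with Vldlr in these libraries.

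Beyond the 7, lists of related genes were described by their counts. The shares to set beside each list are those of all genes tested between genotypes. They were 3.38% higher and 2.75% lower in proBpreB, 10.2% and 10.5% in immature, and 9.69% and 6.62% in mature cells. Of 20 other genes of the lipoprotein receptor family, its ligands and adaptors, 13 passed the filter, and none was called between genotypes in proBpreB or mature cells, with 2 higher and 2 lower in immature cells. The median changes were 0.07, 0.16 and -0.03 in proBpreB, immature and mature cells. Apoe, a ligand of these receptors and abundant in macrophages, fell in immature cells from 211 ± 152 in flox/WT to 60.2 ± 19.1 CPM in flox/flox (-1.81, SE 0.42, adjusted p = 0.00401), and its relation to the macrophage marker levels given with Lrp1 was not tested.

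Of 21 genes of fatty acid uptake and activation, 12 passed the filter, with 1 higher and 1 lower in proBpreB, 5 higher and 2 lower in immature and 5 higher and 1 lower in mature cells. The medians were 0.01, 0.12 and 0.44. Fabp5, a cytosolic fatty acid carrier, rose in proBpreB from 19.2 ± 4.62 to 33.3 ± 2.28 CPM (0.79, SE 0.17, adjusted p = 0.00340) and in mature cells from 7.98 ± 2.29 to 16.0 ± 1.31 CPM (1.00, SE 0.19, adjusted p = 0.000319). It was also higher in immature cells (0.57, SE 0.18, adjusted p = 0.0217). Immature cells had more Slc27a1, a fatty acid transporter (0.96, SE 0.21, adjusted p = 0.00128), and more Acsl1, which activates fatty acids to their coenzyme A esters (0.56, SE 0.13, adjusted p = 0.00223). In mature cells Acsl1 was higher too, with overlap (0.51, SE 0.13, adjusted p = 0.00813), and the change of Slc27a1 was 0.59 (adjusted p = 0.0608). Acsl3, a droplet-associated enzyme of that family, was lower in immature (-0.73, SE 0.19, adjusted p = 0.00604) and in mature cells (-0.56, SE 0.18, adjusted p = 0.0366). Slc27a4, another transporter, was higher in immature (0.48, SE 0.14, adjusted p = 0.0143) and in mature cells (0.48, SE 0.14, adjusted p = 0.0159).

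Cd36, a scavenger receptor that takes up fatty acids and is also made by monocytes, macrophages and platelets, was singled out in immature and mature cells after its values were seen. It was lower in flox/flox in proBpreB, at 11.0 ± 3.13 against 23.1 ± 7.53 CPM (-1.06, SE 0.26, adjusted p = 0.0115), and in immature cells, at 136 ± 36.6 against 223 ± 21.4 CPM (-0.71, SE 0.23, adjusted p = 0.0310). In mature cells it was higher, at 60.9 ± 16.5 against 36.5 ± 10.8 CPM (0.74, SE 0.24, adjusted p = 0.0370). The effect differed between mature and immature cells by 1.45 (SE 0.33, adjusted p = 0.00646). Cd36 and Vldlr therefore had opposite genotype differences in the first pair of populations.

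**Figure D4:**
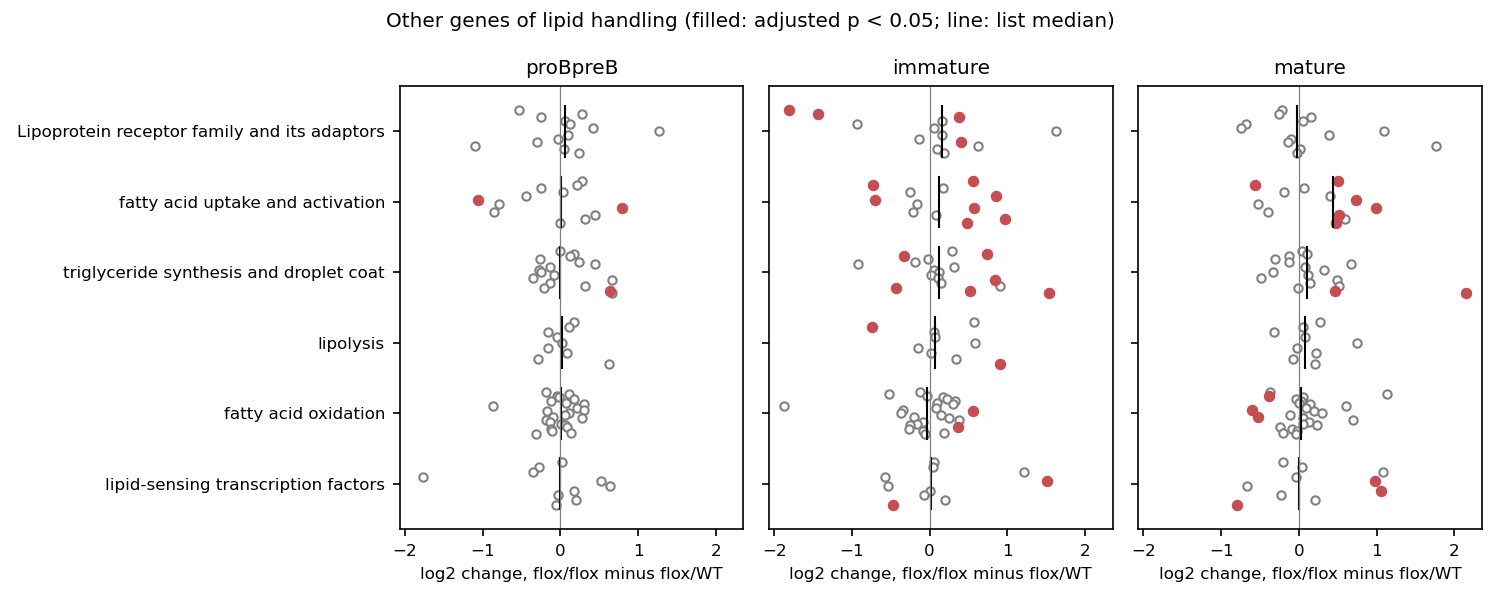
Log2 change between flox/flox and flox/WT for the other genes of 6 lipid lists, with 1 point per gene that passed the filter, filled for an adjusted p under 0.05, and a black line at each list's median. Most points are open and the medians lie near 0, the largest being 0.44 for fatty acid uptake and activation in mature cells.

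For triglyceride synthesis and the droplet coat, 17 of the 25 genes in the table passed the filter. In proBpreB 1 was higher, in immature cells 4 were higher and 2 lower, and in mature cells 2 were higher, with medians of 0.00, 0.13 and 0.10. Tmem159, a partner of seipin in droplet formation, rose in immature cells from 3.16 ± 0.636 to 9.19 ± 1.89 CPM (1.54, SE 0.27, adjusted p = 0.000103) and in mature cells from 1.43 ± 0.397 to 6.43 ± 1.20 CPM (2.15, SE 0.30, adjusted p = 4.58e-06). Soat1, which esterifies cholesterol for storage, rose in all 3 populations, by 0.63 in proBpreB (adjusted p = 0.00556), 0.52 in immature (adjusted p = 0.00589) and 0.47 in mature cells (adjusted p = 0.0166). Agpat2, an acyltransferase of triglyceride synthesis, rose in immature cells by 0.74 (SE 0.14, adjusted p = 0.000272). Plin1, the coat protein of adipocyte droplets, had 0 counts in every group, as did the adipocyte hormone Lep, and Plin4 and Plin5 were below the filter.

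Of 9 lipolysis genes that passed the filter, none was called in proBpreB or mature cells. Immature cells had more Mgll, which releases the last fatty acid of a glyceride, at 7.53 ± 1.38 against 4.01 ± 0.508 CPM (0.91, SE 0.28, adjusted p = 0.0191), and less Abhd6, another monoglyceride hydrolase, at 13.0 ± 1.78 against 21.7 ± 2.32 CPM (-0.74, SE 0.17, adjusted p = 0.00196). Of 25 fatty acid oxidation genes none was called in proBpreB. In immature cells 2 were higher, Hadh (0.36, adjusted p = 0.0216) and Crot (0.55, adjusted p = 0.00252), which act in mitochondrial and peroxisomal oxidation. In mature cells 3 were lower, Acaa2 (-0.39, adjusted p = 0.0135), Eci1 (-0.53, adjusted p = 0.00155) and Crat (-0.60, adjusted p = 0.00316), all mitochondrial enzymes. The list medians were 0.01, -0.04 and 0.03, so Cpt1a in immature cells lay above most of its list.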

How the data were processed

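RNA was extracted from sorted cells and libraries were made with a low-input SMARTer kit, per the labels' protocols. The submitters' processing notes list the tools HISAT2, featureCounts, DESeq2, Trim Galore, FastQC and CASAVA and the build mm10 (GRCm38). Versions, settings, annotation and the use of strand are not stated there. The authors deposited raw read counts per gene symbol for 24 libraries, and these counts alone were used. The deposited normalised table was not used.

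The test was the quasi-likelihood F test of edgeR 4.0.16 (R 4.3.3), after filterByExpr over the 6 groups, TMM scaling and a robust fit. One fit held all 24 libraries, with 12850 genes and 18 residual degrees of freedom. In each of 10 comparisons a gene was called at an adjusted p under 0.05 (Benjamini-Hochberg, over all genes tested). Changes are edgeR log2 estimates, and SE is the absolute change over the square root of F. CPM are counts scaled to the TMM-adjusted library size. Levels per kilobase used merged exon lengths of GENCODE vM21. Positions and promoter windows are from RefSeq (GRCm38.p6), in which all 7 genes matched. The counting limit was 3 counts over a group and intervals were exact 95% binomial intervals, and both cover counting error only. Replicates differed by a chi-square of at least 6.05 per degree of freedom, so no library was taken as a repeat. The scripts were tested on simulated data.

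The 7 genes, the gene lists and the marker lists were chosen with earlier results of these data known. From each list up to 3 genes per genotype comparison were named, those with the smallest adjusted p among genes called without overlap. Not all of the genes so named are reported here. The 5 genes most like Vldlr were taken by Pearson's r of log2 CPM (prior count 2), leaving out unnamed clone symbols.

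Populations of 1 mouse share that mouse, per the labels, which pairs the stage comparisons by animal. Over 5000 genes, the deviations from group means of same-mouse libraries had correlations from -0.284 to 0.372, and 16 of 24 pairs were over 0.1. Alternatives were DESeq2 1.42.0, limma-voom (limma 3.58.1, the mouse as a random block), RLE scaling, no filter or at least 10 CPM in 4 libraries, a fit of the compared groups alone, a replicate block, and each library left out in turn.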

Additional observations from a re-analysis of the deposited data

Results flagged for a closer look

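Vldlr had 0.276 CPM in replicate 3 of proBpreB flox/WT and 0.124 CPM in replicate 3 of mature flox/WT, where the other 3 libraries of each group had 0. Both libraries come from the same mouse and hold 3 counts and 1 count, and the immature library of that mouse had none. Of 41 groups examined in this way, 2 had such a library. The rule flags any group in which 1 library has a count and the others have 0, so its rate of about 1 in 20 does not apply to them.

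The genotype effect on Lrp8 differed between populations by the direct test, by -1.63 (log2) for immature against proBpreB and by 1.79 for mature against immature. The immature groups hold 63 counts (flox/flox) and 189 counts (flox/WT) of this gene over 4 libraries each, which limits the precision. The genotype effect on Hilpda was larger than in proBpreB by 1.02 in immature and by 1.67 in mature cells.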

How the results depend on the processing

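The Hilpda call in each population, the immature Plin2 call and the flox/flox rise of Vldlr to immature cells held in every alternative and without each library in turn. The calls lost are given with their genes above, and the cause of each loss was not tested. Genes called in mature cells numbered 1296 (782 higher, 514 lower) with only the groups compared, against 2096, and genes whose effect differed between mature and proBpreB cells 601 with DESeq2, against 393. Genes called in proBpreB ranged from 493 to 889 without 1 library, against 788, the lowest without replicate 4 of flox/WT. Of the 6 genes tested, 2 were called in immature cells with only the groups compared, against 4. In mature cells 1 to 2 were called without 1 library. For the difference between immature and proBpreB 1 was called with limma-voom and 1 to 2 without 1 library, against 2. For that between mature and immature 0 were called with limma-voom and with only the groups compared, and 0 to 1 without 1 library, against 1.

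Signs turned only for changes of the 7 genes that were not called. The Pnpla2 change in proBpreB (0.00) was 0.00996 with the filter of 10 CPM, 0.0130 with limma-voom and -0.13 to 0.0942 without 1 library. In mature cells it was 0.00742 with RLE, 0.00746 without a filter, 0.0201 with the filter of 10 CPM, 0.00724 with DESeq2, 0.00184 with limma-voom and -0.0466 to 0.0638 without 1 library. The Lrp1 change in mature cells was -0.00227 with limma-voom and -0.14 to 0.27 without 1 library, and its difference between immature and proBpreB -0.88 to 0.0118, against -0.52, the highest without replicate 3 of immature flox/WT. Without 1 library, Cpt1a between mature and immature flox/flox was -0.14 to 0.0829. The differences between mature and proBpreB were -0.11 to 0.0682 for Cpt1a, -0.000218 to 0.26 for Plin2 and -0.10 to 0.13 for Pnpla2, the last -0.0111 with limma-voom.

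With the mouse as a replicate block, no call among the 7 genes changed at the stage steps or the differences, and Pnpla2 between mature and proBpreB was -0.0100. Across genotypes, equal replicate numbers do not mark a shared mouse, and 5 of 12 same-numbered pairs correlated over 0.1 (-0.302 to 0.544). With that number as a block the immature Lrp1 change was -0.91 (adjusted p = 0.0438, against 0.0686), Pnpla2 in proBpreB was 0.00149, and no other call among the 6 genes changed.

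Depth limits the receptors most. Lrp1 had 59 to 507 and Lrp8 63 to 1711 counts per group of 4 libraries, and the control level of Vldlr rests on 0 to 3 counts per library. With the filter of 10 CPM, Lrp1 was not tested. Of the counts called per list under other scaling or filters, 8 moved, each by 1 or 2 genes.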

Other observations

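The lists were also counted over the stage steps. From proBpreB to immature cells 24.0% of all genes tested rose and 25.4% fell in flox/WT, and 28.7% and 27.2% in flox/flox. Of the 9 lipolysis genes that passed the filter, 5 rose and 0 fell over that step in flox/WT, with a median of 0.39, and 6 rose and 0 fell in flox/flox, with a median of 0.64. Of the 17 genes of triglyceride synthesis and the droplet coat, 4 rose and 5 fell in flox/WT, and 8 rose and 2 fell in flox/flox. Of the 25 fatty acid oxidation genes, 5 rose and 5 fell in flox/WT, and 8 rose and 3 fell in flox/flox, so that the numbers that rose lay near or below the share of all genes. From immature to mature, 0 of the 12 genes of fatty acid uptake and activation rose and 5 fell in flox/WT, where 15.6% and 17.1% of all genes did, and 0 rose and 3 fell in flox/flox, against 12.9% and 13.6%. Whether these counts differ between genotypes was not tested.

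Of 10 lipid-sensing transcription factors that passed the filter, 0 were called between genotypes in proBpreB, 1 higher and 1 lower in immature and 2 higher and 1 lower in mature cells. Over all genes tested, 10.2% were called higher and 10.5% lower in immature, and 9.69% and 6.62% in mature cells. Srebf2, which drives cholesterol synthesis, was lower in immature flox/flox cells, at 166 ± 18.5 against 230 ± 31.2 CPM (-0.47, SE 0.11, adjusted p = 0.00243). In mature cells it was 176 ± 19.2 against 306 ± 22.3 CPM (-0.79, SE 0.11, adjusted p = 4.76e-06). Ppargc1a, a coactivator of mitochondrial genes, was higher in immature flox/flox cells, at 8.68 ± 2.08 against 3.05 ± 0.923 CPM (1.51, SE 0.32, adjusted p = 0.000736), and higher with overlap in mature cells (0.97, SE 0.31, adjusted p = 0.0287). Rxra, a partner of many lipid-sensing receptors, was higher in mature flox/flox cells, at 4.69 ± 1.36 against 2.23 ± 0.448 CPM (1.06, SE 0.32, adjusted p = 0.0220).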
